A study of Mus musculus with 16 samples.

Results

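Tumor necrosis factor (TNF) and 9 receptors of its family were followed in spinal cord RNA of a mouse model of amyotrophic lateral sclerosis. The 10 genes were chosen by symbol, with earlier results of these data known, and all 10 were found among the 18167 genes of the expression table. TNF is an inflammatory cytokine that is made as a membrane protein and released by proteolytic shedding. Its receptors fall into those with a cytoplasmic death domain, which can recruit adaptors and caspases, and those without one, which bind TRAF proteins and act mainly through NF-kB and MAP kinases. In the central nervous system microglia are a main source of TNF, and the receptors are found on glia, neurons and vascular cells.

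Libraries came from 16 mice labelled male, in 4 groups. The mutant groups are C57BL/6N mice with the transgene Tg(Prnp-PFN1*G118V)838Kiaei/J, human profilin 1 with the G118V change, with 3 presymptomatic mice 50 days old (MY) and 5 end-stage mice, which could no longer right themselves, aged 198, 190, 245, 224 and 175 days (MO1 to MO5). The control groups carry the unchanged human profilin 1 and are named C57BL/6N-Tg(Prnp-PFN1)850Kiaei/J, with 3 mice 50 days old (WY) and 5 mice 190 to 294 days old (WO), which the labels also call end stage although they are the age-matched controls. Every group therefore overexpresses a human profilin from a mouse prion protein promoter vector, each genotype is a single transgenic line, and no mouse without a transgene was compared. Batch 1 held all young mice and 3 mice each of MO and WO, and batch 2 held MO4, MO5, WO4 and WO5. Both WO mice of batch 2 were 294 days old, older than any MO mouse. The tissue carried the markers of spinal cord in every group, with a mean summed FPKM in WY, MY, WO and MO of 1730, 1820, 1970 and 1560 for 4 neuron markers and of 35.3, 40.4, 45.4 and 30.5 for 4 motor neuron markers.

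Values were batch-corrected log2(1 + FPKM), where FPKM is fragments per kilobase of transcript scaled to the mapped total of the library, so levels of different genes are compared per length. A log2 fold change is the second group minus the first on this scale, and understates the change of genes with an FPKM near or under 1. The depth behind a single gene is unknown. The library labelled MO5 went against its label. *Xist*, the RNA of the inactive X chromosome, was at 3.21 in MO5 and at most 0.37 in the other mice on the log2 scale, and the Y-linked *Ddx3y* was at 1.95 in MO5 and at least 4.06 elsewhere. Fold changes of the 10 genes are therefore given with and without MO5, as are differences of the other genes named from the pathway lists. So are the total counts past both thresholds of the members and of the pathway genes. Counts of single lists and of markers, list medians, counts by FDR alone, marker sums and correlations include MO5.

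The receptors differed widely in level. By mean FPKM over the 16 mice, *Tnfrsf21* was the most abundant at 37.1, followed by *Tnfrsf12a* at 25.7 and *Tnfrsf1a* at 14.7. *Fas* was at 4.14, *Tnfrsf1b* at 2.05, *Tnfrsf11a* at 1.21 and *Ngfr* at 1.05. The scarcest were *Tnfrsf10b* at 0.479, *Cd40* at 0.477 and the ligand *Tnf* at 0.113. Among the WO mice the log2 ranges of *Tnfrsf1b* and *Tnfrsf11a* overlapped, as did those of *Tnfrsf11a* and *Ngfr* and those of *Cd40* and *Tnfrsf10b*, whereas other neighbors in the order were separate. In the MO mice *Tnfrsf12a* stood first by mean, at a log2 level of 5.28 ± 0.23 (SD, n = 5), but its range overlapped that of *Tnfrsf21*, at 5.09 ± 0.06.

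The comparison MY vs. MO sets end-stage mutants against young ones, which also differ in age. WO vs. MO sets mutants 175 to 245 days old against controls 190 to 294 days old. At end stage 4 of the 10 genes rose past both thresholds, a Benjamini-Hochberg FDR of at most 0.05 over all genes with limma and a fold change of at least 1.5. They were *Tnfrsf1a*, *Tnfrsf1b*, *Fas* and *Tnfrsf12a*, in MY vs. MO and in WO vs. MO alike, and no member fell past both thresholds. All 10 had an unadjusted p under 0.05 in each of these comparisons, as had 36.7% of all genes in MY vs. MO and 38.5% in WO vs. MO. For both thresholds the background was 4.11% of all genes higher and 0.787% lower in MY vs. MO, and 4.08% higher and 0.517% lower in WO vs. MO. By FDR alone 7 members were higher and 1 was lower in each comparison, against 13.1% and 12.5% of all genes in MY vs. MO and 15.0% and 12.9% in WO vs. MO. The median log2 fold change of the 10 genes was 0.35 in MY vs. MO and 0.34 in WO vs. MO, beside 0.0047 and 0.0004 over all genes. Both comparisons use the same 5 MO mice and are not independent of each other. Since the members were chosen with earlier results of these data known, the shares of all genes are a background and not a test. Every MO mouse was above all 11 other mice for 6 members, which held for 7.58% of all genes. Without MO5 the counts past both thresholds were also 4 and 4. In the accounts that follow, differences within batch 1 are given for both comparisons, and within batch 2 for WO vs. MO alone, since batch 2 held no young mice. As its WO mice were older than its MO mice, the batch 2 difference cannot be told apart from one of age.

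**Figure D1:**
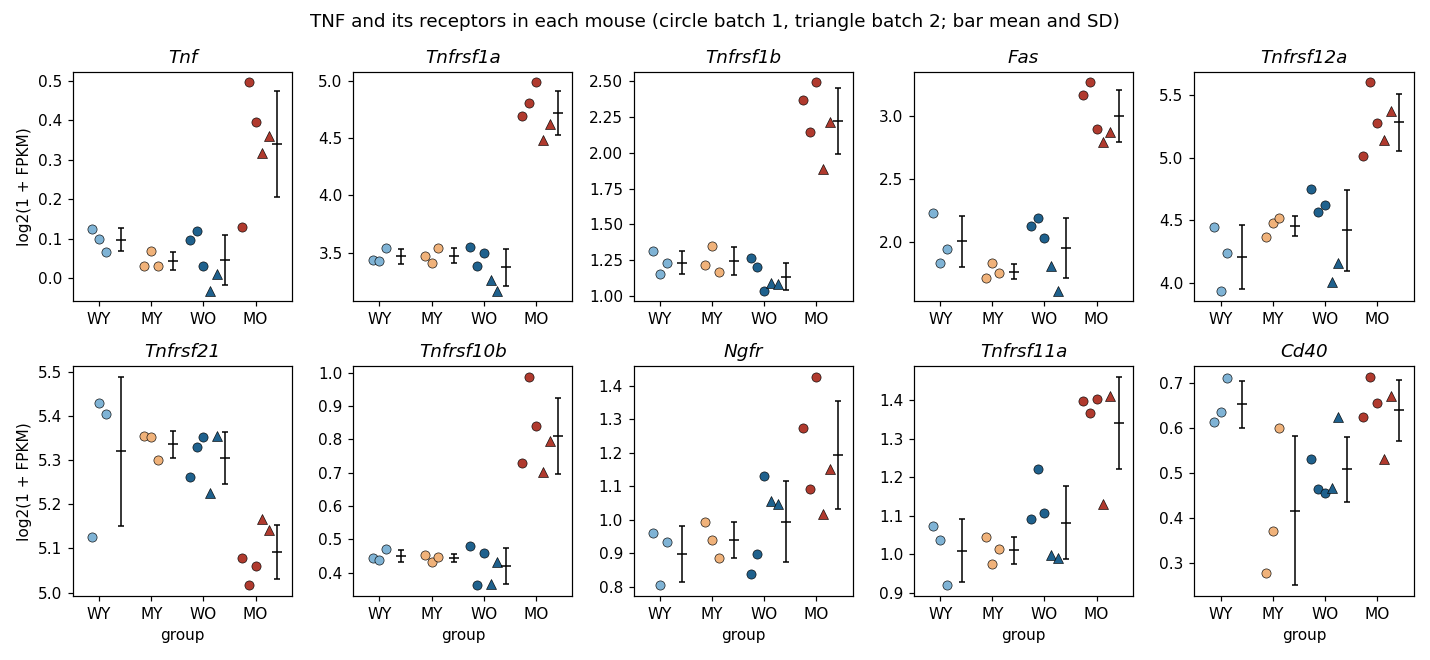
Level of each of the 10 genes in each mouse as log2(1 + FPKM) on the vertical axis, by group on the horizontal axis. Circles are mice of batch 1, triangles mice of batch 2, and the black bar is the group mean with SD. The 5 MO mice lie above all others for *Tnf*, *Tnfrsf1a*, *Tnfrsf1b*, *Fas*, *Tnfrsf12a* and *Tnfrsf10b*.

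*Tnfrsf1a* encodes TNF receptor 1, the widely expressed death domain receptor of soluble TNF. On the log2 scale the MO mice were at 4.70, 4.81, 4.99, 4.49 and 4.62 and the WO mice at 3.54, 3.38, 3.50, 3.26 and 3.16. The MY mice were at 3.47, 3.41 and 3.54, and the WY mice at 3.44, 3.42 and 3.54. The MO mice were separate from every other mouse and the remaining groups overlapped. Its mean FPKM in WY, MY, WO and MO was 10.1, 10.1, 9.39 and 25.6. The log2 fold change was 1.25 ± 0.10 (SE, limma FDR = 0.000273) in MY vs. MO and 1.35 ± 0.10 (FDR = 2.16e-05) in WO vs. MO. MO exceeded WO by 1.36 in batch 1 and 1.34 in batch 2, and MY by 1.36 in batch 1. Without MO5 the log2 fold change was 1.27 in MY vs. MO and 1.37 in WO vs. MO. In bulk tissue, more cells that express a gene and more RNA per cell cannot be told apart, nor can fewer cells and less RNA per cell.

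*Tnfrsf1b* encodes TNF receptor 2, which lacks a death domain and responds best to membrane TNF. By log2 level the MO mice were at 2.37, 2.14, 2.49, 1.89 and 2.22 and the WO mice at 1.27, 1.20, 1.03, 1.09 and 1.08. In the young groups, MY had 1.21, 1.35 and 1.17 and WY had 1.31, 1.15 and 1.23. Again no MO mouse overlapped another group, with MO4 the lowest of the 5. This receptor had a log2 fold change of 0.98 ± 0.13 (SE, limma FDR = 0.00109) in MY vs. MO and 1.09 ± 0.10 (FDR = 3.99e-05) in WO vs. MO. MO minus WO was 1.17 in batch 1 and 0.97 in batch 2, and MO minus MY was 1.09 in batch 1. With MO5 left out, the values were 0.98 in MY vs. MO and 1.09 in WO vs. MO. Its mean FPKM of 3.72 in MO was under that of *Tnfrsf1a* in any group.

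*Fas* encodes the death domain receptor of Fas ligand. Measured as log2(1 + FPKM), the MO mice were at 3.17, 3.27, 2.89, 2.79 and 2.87 and the WO mice at 2.12, 2.19, 2.04, 1.81 and 1.61. Among young mice the levels were 1.72, 1.83 and 1.75 in MY and 2.23, 1.84 and 1.95 in WY. All MO mice were above all other mice, and the MY mice were below the WY mice, MY2 by as little as 1.83 against 1.84 in WY2. For *Fas* the log2 fold change was 1.23 ± 0.11 (SE, limma FDR = 0.000314) in MY vs. MO and 1.04 ± 0.13 (FDR = 0.000193) in WO vs. MO. In WO vs. MO it was 0.99 within batch 1 and 1.12 within batch 2, and in MY vs. MO 1.34 within batch 1. Leaving out MO5 gave 1.26 in MY vs. MO and 1.07 in WO vs. MO. The young groups did not differ past the threshold, with a WY vs. MY log2 fold change of -0.24 ± 0.10 (SE, limma FDR = 0.695), which was -0.12 without WY1.

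*Tnfrsf12a* encodes Fn14, a small receptor without a death domain that binds TWEAK, the product of *Tnfsf12*, and is induced in injured tissue. In log2 units the MO mice were at 5.02, 5.60, 5.28, 5.14 and 5.37 and the WO mice at 4.75, 4.56, 4.62, 4.00 and 4.16. MY mice had 4.37, 4.48 and 4.51, and WY mice 4.44, 3.93 and 4.24. The MO mice were above the rest, but the other groups were more spread than for *Tnfrsf1a*, and WO4 and WO5 were the lowest WO mice. The log2 fold change of *Tnfrsf12a* was 0.83 ± 0.12 (SE, limma FDR = 0.00193) in MY vs. MO and 0.86 ± 0.16 (FDR = 0.00218) in WO vs. MO. The WO vs. MO difference was 0.66 in batch 1 and 1.18 in batch 2, which differ by more than 1.5 times, and MO minus MY was 0.85 in batch 1. Without MO5, MY vs. MO gave 0.81 and WO vs. MO 0.84.

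The ligand itself was near the floor of the measurement. On the log2 scale, *Tnf* in the MO mice was at 0.13, 0.50, 0.40, 0.32 and 0.36 and in the WO mice at 0.10, 0.12, 0.03, -0.03 and 0.01. At 50 days the mutant mice had 0.03, 0.07 and 0.03 and the controls 0.12, 0.10 and 0.07. MY1, MY3 and WO3 share the value 0.03, and WO4 was below 0 after batch correction, so no ratio of FPKM is given. Each MO mouse was above all others, although MO1 exceeded WY1, the highest of them, only by 0.13 against 0.12. The log2 fold change of 0.30 ± 0.07 (SE, limma FDR = 0.0208) in MY vs. MO and 0.29 ± 0.06 (FDR = 0.00581) in WO vs. MO passed the FDR but not the fold threshold. The FDR in MY vs. MO was 0.0789 without MY1, 0.0577 without MY2 and 0.0762 without MY3. The log2 fold change was then 0.29, 0.31 and 0.29. Of all genes 4646 passed the FDR in MY vs. MO with all mice kept, and 2586, 3063 and 2673 without MY1, MY2 and MY3. In batch 1 alone the FDR of *Tnf* was 0.0645 in MY vs. MO and 0.139 in WO vs. MO, with 3 MO mice in each. It was 0.0636 in MY vs. MO with the replicate number as a block, and 0.0544 in WO vs. MO without WO4 and WO5. With log2(FPKM + 0.1) in place of log2(1 + FPKM), which weights low values more, the differences were 1.45 and 1.41 and passed both. Without MO5 the log2 fold changes were 0.29 and 0.29, and the WO vs. MO difference was 0.26 in batch 1 and 0.35 in batch 2. MO minus MY was 0.30 in batch 1.

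*Tnfrsf10b* encodes the mouse receptor of TRAIL, which has a death domain. As log2(1 + FPKM), the MO mice were at 0.73, 0.99, 0.84, 0.70 and 0.80 and the WO mice at 0.48, 0.36, 0.46, 0.37 and 0.43. The MY mice were at 0.45, 0.43 and 0.45, and the WY mice at 0.44, 0.44 and 0.47. The 11 mice outside MO were tightly grouped and all 5 MO mice were above them. With log2 fold changes of 0.37 ± 0.06 (SE, limma FDR = 0.00474) in MY vs. MO and 0.39 ± 0.06 (FDR = 0.000493) in WO vs. MO, this gene passed the FDR but not the fold threshold. It passed both with log2(FPKM + 0.1), at 0.88 and 0.96. On the log2(1 + FPKM) scale MO minus WO was 0.42 in batch 1 and 0.35 in batch 2, and MO minus MY 0.41 in batch 1. The values without MO5 were 0.37 in MY vs. MO and 0.40 in WO vs. MO.

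*Tnfrsf21* encodes death receptor 6, a neuronal and glial receptor with a death domain, and was the member that was lower at end stage. In log2(1 + FPKM) the MO mice were at 5.08, 5.02, 5.06, 5.17 and 5.14 and the WO mice at 5.26, 5.33, 5.35, 5.22 and 5.36. In the young groups, MY had 5.35, 5.35 and 5.30 and WY had 5.12, 5.43 and 5.41. The MO mice were below all MY and all WO mice, while WY1 lay within their range. The log2 fold changes were -0.24 ± 0.04 (SE, limma FDR = 0.00563) in MY vs. MO and -0.21 ± 0.04 (FDR = 0.00348) in WO vs. MO, both under the fold threshold. MO minus WO was -0.26 in batch 1 and -0.14 in batch 2, and MO minus MY was -0.28 in batch 1. Without MO5 the differences were -0.26 and -0.23.

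*Tnfrsf11a* encodes RANK, the receptor of the *Tnfsf11* product RANK ligand. By log2(1 + FPKM) the MO mice were at 1.40, 1.37, 1.40, 1.13 and 1.41 and the WO mice at 1.09, 1.22, 1.11, 1.00 and 0.99. Among young mice the levels were 1.04, 0.97 and 1.01 in MY and 1.07, 1.04 and 0.92 in WY. MO4 lay apart from the 4 other MO mice and below WO2, so MO and WO overlapped, whereas MO and MY did not. The log2 fold change passed the FDR but not the fold threshold, at 0.33 ± 0.07 (SE, limma FDR = 0.00935) in MY vs. MO and 0.26 ± 0.06 (FDR = 0.0129) in WO vs. MO. MO minus WO was 0.25 in batch 1 and 0.28 in batch 2, and MO minus MY was 0.38 in batch 1. The FDR in WO vs. MO was 0.102 without WO4 and WO5, an alternative chosen after seeing the data, at a log2 fold change of 0.20. With quantile normalization it was 0.0542, at a log2 fold change of 0.16. Leaving MO5 out gave 0.31 in MY vs. MO and 0.24 in WO vs. MO.

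*Ngfr* encodes the p75 neurotrophin receptor, a death domain receptor found on motor neurons in development and after injury and on Schwann cells. As log2 values the MO mice were at 1.27, 1.09, 1.43, 1.02 and 1.15 and the WO mice at 0.84, 0.90, 1.13, 1.06 and 1.05. MY mice had 0.99, 0.94 and 0.89, and WY mice 0.96, 0.80 and 0.93. MO overlapped WO but not MY. The differences did not pass the FDR, with a 95% interval of the log2 fold change of 0.05 to 0.46 in MY vs. MO (limma FDR = 0.0712) and 0.01 to 0.38 in WO vs. MO (FDR = 0.104). MO minus WO was 0.31 in batch 1 and 0.03 in batch 2, and MO minus MY was 0.32 in batch 1. MO4 was the lowest MO mouse, and without it the FDR in MY vs. MO was 0.0334. The FDR there was also under 0.05 with all 4 groups in 1 fit (0.0431), in batch 1 alone (0.0406) and with batch as a term (0.0325). With quantile normalization the log2 fold change was 0.12 (FDR = 0.281), and with a mouse other than MO4 left out the FDR was up to 0.21, without MY3. Without MO5 the log2 fold change was 0.26 in MY vs. MO and 0.21 in WO vs. MO.

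*Cd40* encodes a costimulatory receptor of B cells, macrophages and microglia. In log2 terms the MO mice were at 0.62, 0.71, 0.65, 0.53 and 0.67 and the WO mice at 0.53, 0.46, 0.45, 0.47 and 0.62. At 50 days the mutant mice had 0.28, 0.37 and 0.60 and the controls 0.61, 0.63 and 0.71. MO overlapped every other group, and the MY mice lay below the WY mice without overlap. The 95% interval of the log2 fold change was 0.05 to 0.39 in MY vs. MO (limma FDR = 0.061), 0.03 to 0.23 in WO vs. MO (FDR = 0.0597) and -0.45 to -0.03 in WY vs. MY (FDR = 0.667). The FDR was 0.0461 without MO4 and 0.0165 without MY3 in MY vs. MO, and 0.0264 without MO4 and 0.0285 without WO5 in WO vs. MO. With all mice kept it was 0.022 in MY vs. MO with all 4 groups in 1 fit, and in WO vs. MO 0.0428 with log2(FPKM + 0.1) and 0.0494 with an intensity trend, so the side of the threshold depended on single mice and on these settings. Other alternatives raised the FDR, up to 0.22 in MY vs. MO and 0.422 in WO vs. MO. The log2 fold change was as low as 0.14 and 0.05 over the alternatives. With 1 mouse left out the FDR was up to 0.234 and 0.131. MO minus WO was 0.18 in batch 1 and 0.06 in batch 2, and MO minus MY was 0.25 in batch 1. Without MO5 the values were 0.21 and 0.12. Of 4 B cell markers *Cd79a* and *Cd79b* were in the table. In WO vs. MO the log2 fold change was -0.17 ± 0.07 (SE, limma FDR = 0.117) for *Cd79a*, which did not pass the FDR, and 0.45 ± 0.06 (FDR = 0.000373) for *Cd79b*, which passed it but not the fold threshold. The mean FPKM in MO and WO was 0.0972 and 0.232 for *Cd79a*, and 0.521 and 0.117 for *Cd79b*. Their part in the values of *Cd40* was not tested.

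Age in controls and genotype in young mice were examined in the same way. No member passed both thresholds with limma in WY vs. WO, where 0.253% of all genes did, or in WY vs. MY, where 0.0055% did. At an unadjusted p under 0.05 there was 1 member of 10 in each, *Cd40* in both, near the 13.5% of all genes in WY vs. WO and the 7.16% in WY vs. MY. Its log2 fold change was -0.14 ± 0.05 (SE, limma FDR = 0.257) in WY vs. WO and -0.24 ± 0.09 (FDR = 0.667) in WY vs. MY. These comparisons share the WY mice, and each also shares a group with those of the MO mice. The median log2 fold change of the 10 genes was -0.04 in WY vs. WO and 0.003 in WY vs. MY, beside 0.0018 and -0.0025 over all genes.

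**Figure D2:**
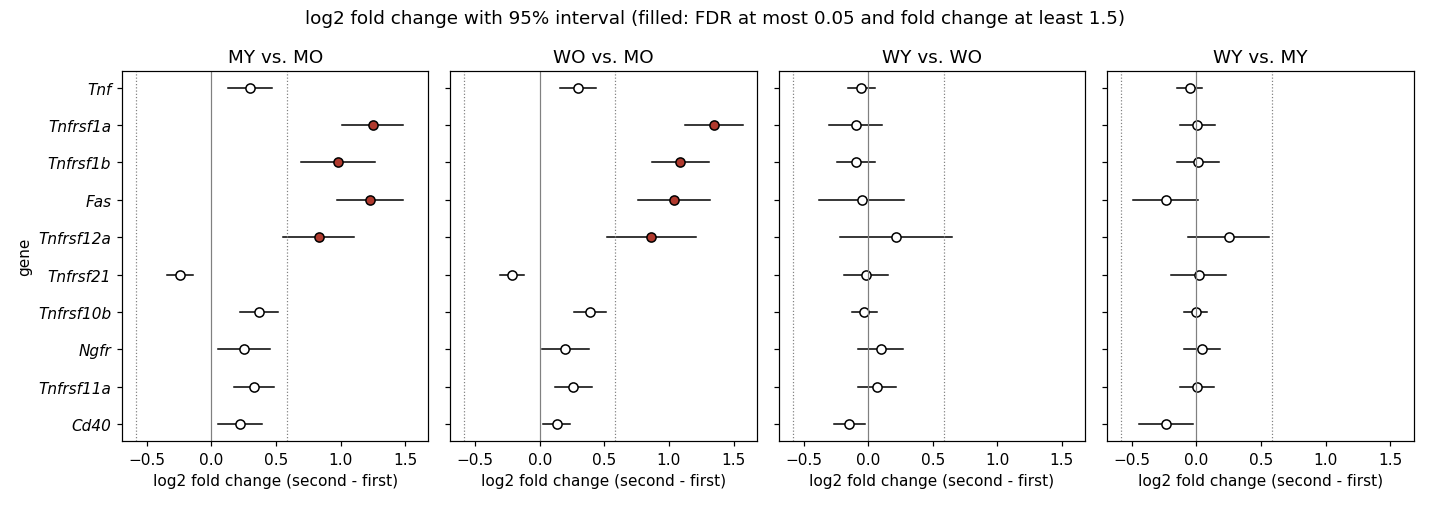
log2 fold change (horizontal axis, second group minus first) of each gene (vertical axis) in the 4 comparisons, with the 95% interval from limma as a line. Filled points passed an FDR of 0.05 and a fold change of 1.5, and dotted lines mark that fold change. Filled points are seen in MY vs. MO and WO vs. MO, 4 in each.

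Whether the age difference differed between genotypes was tested as (MO - MY) - (WO - WY) over the 16 mice. It passed both thresholds for 3 members, all positive, beside 4.65% of all genes. The log2 difference was 1.34 ± 0.14 (SE, limma FDR = 6.43e-05) for *Tnfrsf1a*, 1.28 ± 0.19 (FDR = 0.000454) for *Fas* and 1.08 ± 0.15 (FDR = 0.000248) for *Tnfrsf1b*. By FDR alone 6 members were positive, against 10.5% of all genes, the others being *Tnf*, *Tnfrsf10b* and *Cd40*. The FDR of *Tnf* was 0.0147, but 0.0943 in batch 1 alone and 0.056 without WO4 and WO5. The call for *Tnfrsf12a* turned on a single control mouse. Its log2 difference was 0.62 ± 0.24 (SE, limma FDR = 0.092) with all mice, and 0.75 (FDR = 0.0438) without WY2. Over the alternatives other than leaving out 1 mouse it was 0.39 to 0.63 (FDR 0.0578 to 0.249), in part under the fold threshold. With 1 mouse left out it was 0.50 to 0.75, with an FDR up to 0.231. By FDR alone *Tnfrsf21*, at 0.0877, would also pass without WY2 (0.0357), but without WY1 its log2 difference moved from -0.23 to -0.13 (FDR = 0.219). By the same measure *Tnfrsf11a*, at 0.078, would pass without MO4 (0.0117) or without WO2 (0.0432). *Tnfrsf11a* would also pass with batch as a term (0.0416), with the replicate number as a block (0.0483) and without MO4 and MO5 together (0.0211). Other settings went the other way. The log2 difference of *Tnfrsf11a*, 0.26 with all mice, was as low as 0.15 over the alternatives. Its FDR was up to 0.261 there, and up to 0.183 with 1 mouse left out. Without MO5 the same count of 3 was found, with 1.37 for *Tnfrsf1a*, 1.31 for *Fas* and 1.08 for *Tnfrsf1b*.

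The other genes of the pathway were examined as lists, which were also chosen with earlier results of these data known. Of 121 such genes all but 4 were in the table, and 17 were higher and 1 lower past both thresholds in MY vs. MO, and 14 higher and 1 lower in WO vs. MO. Of all genes 4.11% were higher and 0.787% lower in MY vs. MO, and 4.08% higher and 0.517% lower in WO vs. MO. The median log2 fold change of the pathway genes was 0.10 and 0.13, beside 0.0047 and 0.0004 over all genes. Without MO5 the counts in both directions together were 18 and 15. No gene of these lists passed both thresholds with limma in WY vs. WO or WY vs. MY, where 12 and 7 had an unadjusted p under 0.05, no larger a share than among all genes (13.5% and 7.16%). Among the 17 genes named here, MO minus WO had the same sign in both batches for 17, but the size differed by more than 1.5 times for 4. In batch 1 and batch 2 it was 1.26 and 0.58 for *Tnfsf11*, 0.74 and 0.42 for *Tnfaip3*, 0.63 and 0.31 for *Map3k14* and 0.60 and 0.38 for *Tnip2*. In batch 2 *Tnfsf11* and *Tnfaip3* were thus under the fold threshold, as was *Tnfsf9*, at 0.72 and 0.52 in batch 1 and batch 2. Leaving out MO5 moved the MO minus MY or MO minus WO value of these 17 genes, and of the microglia markers and *Chat* described later, by at most 0.06, with the largest shift for *Tnfsf8*. *Rhbdf1*, at 0.57, and the microglia marker *Tmem119*, at 0.56, were then under the fold threshold in MY vs. MO. Values that follow are log2 fold changes with SE, and those under a fold change of 1.5 are given as values only.

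Among 13 ligands of the TNF superfamily 4 were higher in MY vs. MO and 3 in WO vs. MO (limma), beside 4.11% and 4.08% of all genes. The medians were 0.18 and 0.16. *Tnfsf11*, the ligand of the *Tnfrsf11a* product, differed by 0.95 ± 0.23 in MY vs. MO and 0.99 ± 0.18 in WO vs. MO. Its mean FPKM in WY, MY, WO and MO was 0.0429, 0.0651, 0.04 and 1.14, so it was near 0 outside MO. *Tnfsf8*, the CD30 ligand, differed by 0.63 ± 0.09 in MY vs. MO and 0.68 ± 0.08 in WO vs. MO. *Tnfsf9*, the 4-1BB ligand, differed by 0.64 ± 0.15 in MY vs. MO and 0.64 ± 0.11 in WO vs. MO. *Tnfsf12*, whose product binds the *Tnfrsf12a* receptor, passed both thresholds in MY vs. MO at 0.65 ± 0.08 and was at 0.32 ± 0.09 in WO vs. MO. *Fasl* and *Tnfsf10*, the ligands of the *Fas* and *Tnfrsf10b* receptors, did not pass both thresholds, with a mean FPKM in MO of 0.168 and 0.396. *Tnfsf4*, *Cd40lg*, *Tnfsf14* and *Tnfsf18* were not analysed here.

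Of 19 other receptors of the superfamily 1 was higher in each comparison, *Ltbr*, the lymphotoxin beta receptor, by 0.79 ± 0.09 in MY vs. MO and 0.80 ± 0.08 in WO vs. MO with limma. That is 1 of 19, near the 4.11% and 4.08% of all genes. Of 6 genes of TNF and receptor shedding 1 was higher in MY vs. MO, beside 4.11% of all genes. This was *Rhbdf1*, an inactive rhomboid that helps mature the TNF-releasing protease, by 0.60 ± 0.11. None of the 6 passed both in WO vs. MO, where *Rhbdf1* was at 0.54 ± 0.10. There 3 had an unadjusted p under 0.05, beside 38.5% of all genes. Among 18 death domain adaptors and caspases 1 was higher in each, *Casp8*, the initiator caspase of death receptors, by 0.64 ± 0.09 in MY vs. MO and 0.80 ± 0.09 in WO vs. MO. This count too, 1 of 18, is near that of all genes. By FDR alone 9 of the 18 were higher in MY vs. MO and 11 in WO vs. MO, beside 13.1% and 15.0% of all genes, and none was lower. An unadjusted p under 0.05 was found for 11 and 14, beside 36.7% and 38.5% of all genes. The median of this list was 0.22 in MY vs. MO and 0.25 in WO vs. MO.

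Of 24 TRAF, ubiquitin and kinase genes 3 were higher in MY vs. MO and 1 in WO vs. MO, with medians of 0.03 and 0.005. That is 3 and 1 of 24, beside 4.11% and 4.08% of all genes. By FDR alone 5 were higher and 3 lower in MY vs. MO, beside 13.1% and 12.5% of all genes. In WO vs. MO 8 were higher and 2 lower, beside 15.0% and 12.9%. *Tnfaip3*, which encodes the A20 enzyme that limits NF-kB signalling, rose by 0.62 ± 0.14 in MY vs. MO and 0.61 ± 0.12 in WO vs. MO. *Tnip2*, a partner of A20, rose by 0.67 ± 0.10 in MY vs. MO and was at 0.51 ± 0.08 in WO vs. MO. *Map3k14*, the kinase of the alternative NF-kB pathway, rose by 0.60 ± 0.11 in MY vs. MO and was at 0.50 ± 0.09 in WO vs. MO. Of 10 NF-kB subunits and inhibitors 1 was higher past both thresholds in each comparison, beside 4.11% and 4.08% of all genes. This was *Bcl3*, a nuclear regulator of NF-kB dimers, by 1.23 ± 0.14 in MY vs. MO and 1.21 ± 0.13 in WO vs. MO. By FDR alone 7 and 6 of the 10 were higher in MY vs. MO and WO vs. MO, beside the same 13.1% and 15.0%. Of 13 partners and ligands of the p75 receptor none passed both thresholds with limma in either comparison, and the medians were -0.07 and -0.08. An unadjusted p under 0.05 was found for 3 in MY vs. MO and 4 in WO vs. MO, beside 36.7% and 38.5% of all genes. By FDR alone none was higher, and 2 and 3 were lower, beside 12.5% and 12.9% of all genes.

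Among the pathway lists, that of known target genes of TNF and NF-kB had the most calls by number. Of 20 genes 7 were higher and 1 lower in MY vs. MO, beside 4.11% and 0.787% of all genes. In WO vs. MO 8 were higher and 1 lower, beside 4.08% and 0.517%. The medians were 0.49 and 0.41. The chemokine gene *Cxcl10*, whose product draws T cells, rose by 1.29 ± 0.21 in MY vs. MO and 1.63 ± 0.16 in WO vs. MO, and was at -0.46 ± 0.07 in WY vs. WO (limma FDR = 0.0255), under the fold threshold. *Ccl2*, a chemokine gene for monocytes, rose by 1.24 ± 0.16 in MY vs. MO and 1.46 ± 0.16 in WO vs. MO, and *Ccl5*, for T cells and monocytes, by 0.81 ± 0.17 in MY vs. MO and 1.10 ± 0.16 in WO vs. MO. *Icam1*, an adhesion molecule for leukocytes, rose by 1.56 ± 0.14 in MY vs. MO and 1.48 ± 0.14 in WO vs. MO. *Tnfaip2* rose by 0.82 ± 0.11 in MY vs. MO and 0.70 ± 0.09 in WO vs. MO, whereas *Mmp9*, a matrix metalloproteinase, changed by -0.71 ± 0.08 in MY vs. MO and -0.70 ± 0.07 in WO vs. MO. Many genes of the list also respond to other cytokines, and 6 of the 20, *Tnfaip3* among them, belong to another list as well.

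**Figure D3:**
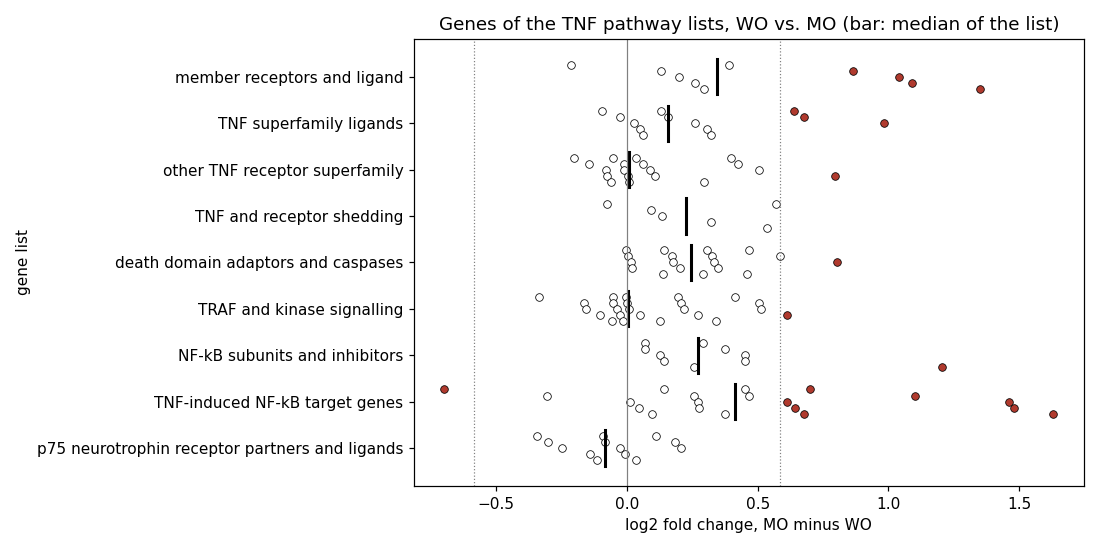
log2 fold change of each gene in WO vs. MO (horizontal axis) for the TNF genes and the other lists (vertical axis). Each point is a gene, filled where it passed an FDR of 0.05 and a fold change of 1.5, and the black bar is the list median, 0.41 for the target genes and 0.34 for the 10 TNF and receptor genes. Dotted lines mark a fold change of 1.5.

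Cell type markers were also higher or lower in the MO mice. Among microglia markers, *Aif1*, which encodes a calcium-binding protein of activated microglia, rose by 1.88 ± 0.26 in MY vs. MO and 1.75 ± 0.23 in WO vs. MO on the log2 scale (SE, limma FDR = 0.00161 and 0.000305). *Csf1r*, the receptor for the survival factor of these cells, rose by 1.17 ± 0.08 in MY vs. MO and 1.28 ± 0.09 in WO vs. MO, and the fractalkine receptor gene *Cx3cr1* by 0.98 ± 0.15 in MY vs. MO and 1.14 ± 0.12 in WO vs. MO. *Tmem119* was at 0.60 ± 0.10 in MY vs. MO and 0.49 ± 0.09 in WO vs. MO. *P2ry12*, a marker of resting microglia, was at 0.10 ± 0.12 in WO vs. MO (limma FDR = 0.623). The mean FPKM in MO and in WO was 67.7 and 27.3 for *Csf1r* and 15.2 and 14.1 for *P2ry12*. The ratio of the MO to the WO mean FPKM was 2.72 for *Tnfrsf1a*, 3.1 for *Tnfrsf1b*, 2.41 for *Fas* and 1.84 for *Tnfrsf12a*. The part of microglia in the results for the receptors was not tested.

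The summed FPKM of 5 astrocyte markers, led by *Gfap*, was 2430, 3230, 2900, 2350 and 2530 in MO and 1010, 1020, 1080, 1160 and 934 in WO. It was 1280, 1320 and 1270 in MY and 1550, 1420 and 1400 in WY. MO was thus above all other mice. Of the 5 markers 2 rose past both thresholds in MY vs. MO and 3 in WO vs. MO, beside 4.11% and 4.08% of all genes. The sum of 4 motor neuron markers, led by *Slc5a7*, was 31.3, 33.1, 25.8, 33.7 and 28.4 in MO and 48.1, 44.7, 47.8, 42.9 and 43.5 in WO, which did not overlap. It was 42.3, 41.6 and 37.3 in MY and 24.2, 41.1 and 40.5 in WY, where the lowest mouse was below every MO mouse. Of these 4, *Chat*, which makes acetylcholine, fell by 0.67 on the log2 scale in WO vs. MO and was called alone. Past both thresholds 0.517% of all genes were lower in WO vs. MO. The part of astrocytes and motor neurons in the receptor results was not tested. The 4 T cell markers in the table were each near 0, under a mean FPKM of 0.1 over the 16 mice. Their summed FPKM was 0.405, 0.462, 0.222, 0.299 and 0.582 in MO and 0.139, 0.138, 0.141, 0.0196 and 0.0946 in WO. In MY it was 0.213, 0.0421 and 0.132 and in WY 0.221, 0.146 and 0.0421, so MO3 was barely above WY1 and the other MO mice were higher. None passed both thresholds with limma, while *Cd3g* and *Cd8a* passed the FDR in WO vs. MO (0.0127 and 0.0412), where 15.0% of all genes were higher by FDR alone. An unadjusted p under 0.05 was found for 1 in MY vs. MO and 2 in WO vs. MO, beside 36.7% and 38.5% of all genes. The part of T cells was not tested either. Summed, the 4 border macrophage markers, led by *F13a1*, were at 1.9, 1.74, 1.32, 1.29 and 1.26 in MO and 1.02, 1.1, 1.16, 1.12 and 0.799 in WO. In MY the sum was 0.917, 0.979 and 0.962 and in WY 0.733, 0.994 and 0.974, below every MO mouse. With limma 0 of 4 passed both thresholds and 2 had an unadjusted p under 0.05 in each comparison, beside 36.7% and 38.5% of all genes. These were *Mrc1* and *Lyve1*, which passed the FDR in MY vs. MO (0.0142 and 0.0491) and in WO vs. MO (0.00343 and 0.0109). By FDR alone 13.1% and 15.0% of all genes were higher. The part of border macrophages was not tested.

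For the 4 genes called in both comparisons, the genes of the whole table with the most similar pattern were sought by Pearson correlation of log2 values over the 16 mice, with the r over the 11 mice outside MO given second. The first r includes the distance between MO and the other groups. The second spans young and old mice, and both batches through WO4 and WO5. Closest to *Tnfrsf1a* were *Ctsd* (r = 0.997, and 0.902), *Ctsb* (r = 0.996, and 0.905) and *Gusb* (r = 0.996, and 0.934). For *Tnfrsf1b* they were *4632428N05Rik* (r = 0.991, and 0.606), *Cd22* (r = 0.991, and 0.622) and *Itgal* (r = 0.990, and 0.814). *Ctsd*, *Ctsb* and *Gusb* encode lysosomal enzymes, and *Cd22* and *Itgal* leukocyte surface proteins. For *Fas* they were *Mt1* (r = 0.985, and 0.863), *Ncf1* (r = 0.981, and 0.907) and *Pttg1ip* (r = 0.978, and 0.766). The nearest to *Tnfrsf12a* were *Tspo* (r = 0.953, and 0.813), *Cst3* (r = 0.953, and 0.801) and *Abhd11os* (r = 0.949, and 0.775).

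The 10 genes are protein-coding and lie on 8 chromosomes. *Tnfrsf1a* lies at chr6:125349362-125362484, *Tnfrsf1b* at chr4:145213463-145246870, *Fas* at chr19:34290666-34327772 and *Tnfrsf12a* at chr17:23675445-23677468 (GENCODE M21, GRCm38). *Tnf*, *Tnfrsf12a* and *Tnfrsf21* share chromosome 17. No measured gene of the annotation overlaps a member.

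Promoter windows of 300 bases (250 before to 50 after the start) from RefSeq on GRCm38.p6 were matched for 8 of the 10 genes, all but *Tnfrsf10b* and *Cd40*. Motifs were sought on both strands. The 10-letter NF-kB consensus was in 8.46% of all 32851 windows and in 0 of the 8, and a shorter form of 9 letters, GGGNNTTCC, in 5.82% and also 0. The AP-1 site TGANTCA was in 7.81% of windows and in 1 of the 8, *Fas*. The GC box GGGCGG was in 35.7% of windows and in 7 of the 8, all but *Tnfrsf1a*, and TATAAA was in 13.6% and in 1, *Tnf*. A match is a run of letters, and its absence concerns this window alone. Of the 4 genes that rose in both comparisons, the 3 windows with a match are shown, 5′ to 3′ on the strand of the gene, with matches to TGANTCA and GGGCGG in capitals.
*Tnfrsf1b* (chr4:145246821-145247120, minus strand): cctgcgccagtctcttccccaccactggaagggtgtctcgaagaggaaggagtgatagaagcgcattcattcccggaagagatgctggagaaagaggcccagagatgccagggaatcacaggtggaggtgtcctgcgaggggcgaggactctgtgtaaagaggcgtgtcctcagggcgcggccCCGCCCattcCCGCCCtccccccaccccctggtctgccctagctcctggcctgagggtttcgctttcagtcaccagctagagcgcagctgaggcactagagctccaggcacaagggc
*Fas* (chr19:34290409-34290708, plus strand): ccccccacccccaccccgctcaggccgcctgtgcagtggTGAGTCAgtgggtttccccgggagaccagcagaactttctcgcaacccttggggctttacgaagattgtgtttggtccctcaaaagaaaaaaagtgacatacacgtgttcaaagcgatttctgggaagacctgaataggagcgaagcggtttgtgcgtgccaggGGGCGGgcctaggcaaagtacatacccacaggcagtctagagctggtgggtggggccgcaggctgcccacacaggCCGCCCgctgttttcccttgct
*Tnfrsf12a* (chr17:23677400-23677699, minus strand): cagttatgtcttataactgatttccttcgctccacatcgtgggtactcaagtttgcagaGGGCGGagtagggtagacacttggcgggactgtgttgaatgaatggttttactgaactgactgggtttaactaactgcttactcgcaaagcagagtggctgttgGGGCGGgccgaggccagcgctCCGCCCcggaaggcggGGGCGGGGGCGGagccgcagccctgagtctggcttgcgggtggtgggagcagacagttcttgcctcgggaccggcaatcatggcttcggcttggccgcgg
The *Tnfrsf12a* window holds 5 GC boxes, and those of *Tnfrsf1b* and *Fas* 2 each.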

How the data were processed

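Spinal cord RNA of 16 mice was sequenced, 1 library per mouse, with a stranded mRNA kit. The authors used Trimmomatic on the reads, TopHat for alignment (mm10) and Cufflinks for FPKM. The log2 values were deposited by the authors after adding 1 to FPKM, removing genes at 0 in at least 8 mice and correcting for the 2 batches with ComBat. Tool versions, the annotation and the ComBat covariates are not given in the sources used here. Read counts were not used here, so precision rests on the spread between mice.

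Each comparison was fitted on its own groups with limma 3.58.1 (lmFit and eBayes, two-sided) in R 4.3.3 on all 18167 genes, and the genotype by age contrast on all 16 mice. A gene was called when its Benjamini-Hochberg FDR did not exceed 0.05 and its fold change was 1.5 or more. The procedure was tested on simulated data, drawn as independent normal values without batch effects. Changes larger than the log2 fold change of any member were added, only to genes with a mean of at least 1. The simulation thus does not speak to batch correction, to smaller changes or to genes as low as *Tnf*, *Tnfrsf10b* and *Cd40*. FPKM was taken as 2 to the power of the deposited value, minus 1, and set to 0 where negative in marker sums. The members and lists were chosen with earlier results of these data known. Named pathway genes were all genes of a list called in MY vs. MO or WO vs. MO where 8 or fewer were, and otherwise the 6 called genes with the largest absolute WO vs. MO change. The 9-letter NF-kB motif was searched first, and the 10-letter consensus was added after that result was seen. Alternatives were log2(FPKM + 0.1), a mean of at least 1, 1 fit of all groups, quantile normalization, an intensity trend, no minimum fold, batch 1 only, batch as a term, the replicate block and each mouse left out. Leaving out WO4 and WO5, or MO4 and MO5, was chosen after seeing the data. Python 3.11.15, pandas 2.3.3, NumPy 2.4.6 and matplotlib 3.10.9 were used.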

Additional observations from a re-analysis of the deposited data

Results flagged for a closer look

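Within the MO and WO groups, a mouse was marked when its gap to the nearest other mouse, divided by the range of the group, exceeded Dixon's 95% critical value. Over 24 groups tested 3 were marked, and chance marks about 1 in 20. *Tnfrsf11a* was at 1.13 (log2) in MO4, against 1.37 to 1.41 in the 4 other MO mice. *Xist* was at 3.21 in MO5, against -0.36 to 0.26, and *Ddx3y* at 1.95, against 4.30 to 4.71. Both concern the library whose label gives a male.

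The age difference differed between genotypes for 6 members by limma at an FDR of at most 0.05, as the log2 value of (MO - MY) - (WO - WY). It was 0.35 for *Tnf*, 1.34 for *Tnfrsf1a*, 1.08 for *Tnfrsf1b*, 1.28 for *Fas*, 0.40 for *Tnfrsf10b* and 0.37 for *Cd40*.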

How the results depend on the processing

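Of 50 log2 values of the members, each tried under the alternatives, 880 of 925 trials kept the direction and the call, 19 gained a call, none lost one, and 26 reversed. Of the 19, 11 arose where the minimum fold change was removed, 7 with log2(FPKM + 0.1) and 1 without WY2. All 26 were uncalled values in WY vs. WO or WY vs. MY. With no minimum fold change 8 members were called in MY vs. MO, 8 in WO vs. MO and 6 in genotype by age. Pathway genes were then 48, 54 and 3 in MY vs. MO, WO vs. MO and WY vs. WO. Of all 18167 genes 4646, 5075 and 204 were called in those 3 comparisons, and 3210 in genotype by age. With log2(FPKM + 0.1) there were 6 members in genotype by age, and 30, 30 and 1 pathway genes in MY vs. MO, WO vs. MO and WY vs. WO. Of all genes 1233 were then higher and 250 lower in MY vs. MO, and 1272 and 257 in WO vs. MO. These counts were 17 and 43 in WY vs. WO, and 1233 and 315 in genotype by age. Among genes with a mean of at least 1 there were 8 pathway genes in WO vs. MO, and *Tnf*, *Tnfrsf10b* and *Cd40* had no value. Of the 13530 genes with such a mean, 602 were higher and 94 lower there. The counts with 1 mouse left out were 4 for members in MY vs. MO and in WO vs. MO, 3 to 4 in genotype by age, and for pathway genes 15 to 21 in MY vs. MO and 13 to 18 in WO vs. MO. In alternatives chosen after seeing the data, without WO4 and WO5 4 members and 16 pathway genes were called in WO vs. MO, and without MO4 and MO5 4 and 19. The replicate numbers did not pair the mice, and with them as a block, where mice without a partner add nothing, 4, 4 and 3 members were called in MY vs. MO, WO vs. MO and genotype by age. Quantile normalization gave 715 higher and 277 lower genes in genotype by age, against 845 and 175.

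In WY vs. WO, *Tnfrsf1a* reversed to 0.00789 and *Fas* to 0.112 (log2) in batch 1 only, with batch as a term and with the replicate block, and *Tnfrsf21* to 0.00904 with quantile normalization. With 1 mouse left out *Fas* was -0.134 to 0.0625 and *Tnfrsf21* -0.112 to 0.0400, turning without WY1 or WO5 for *Fas* and without WY2, WY3 or WO4 for *Tnfrsf21*. In WY vs. MY, *Tnfrsf1a* reversed to -0.00481 and *Tnfrsf10b* to 0.00696 with quantile normalization. With 1 mouse left out the ranges were -0.0292 to 0.0437 for *Tnfrsf1a*, -0.0415 to 0.0525 for *Tnfrsf1b*, -0.0815 to 0.0705 for *Tnfrsf21*, -0.0126 to 0.0036 for *Tnfrsf10b*, -0.00625 to 0.0710 for *Ngfr* and -0.0442 to 0.0334 for *Tnfrsf11a*. Each mouse of WY and MY turned at least 1 of these signs. The cause was not tested. The depth of each gene and the covariates of the batch correction are unknown, and the young groups hold 3 mice each, all of batch 1.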
